A study of Mus musculus with 8 samples.

Results

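The 14-3-3 proteins were followed through 7 genes, Ywhab, Ywhae, Ywhag, Ywhah, Ywhaq, Ywhaz and Sfn, in cultured lymph node stromal cells (LNSCs) of BALB/c mice after knockdown of Eif4g3. Every non-control probe that carries one of these gene names was taken, which gave 16 of 41174 probes, for 7 of 28599 named genes. The set was taken as a gene family and was chosen by the rise of Ywhah in heavy polysome RNA. Ywhah ratios, levels and differences that involve heavy polysome RNA are therefore given as a description, with no test. The total RNA test of Ywhah takes its spread from all 8 arrays, so the heavy polysome values enter that test through the spread. Ratios also correlated between the fractions across genes. Total RNA arrays 1 to 4 had r = 0.601, 0.661, 0.719 and 0.265 with heavy polysome array 2. The total RNA ratio, rank and call of Ywhah are therefore not independent of the choice.

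LNSCs are the non-haematopoietic scaffold cells of a lymph node. Cells had received 400 pmol of Eif4g3 siRNA or of control siRNA by lipofection, on 7 plates per siRNA, and were taken after 48 h. Eif4g3 encodes a scaffold protein of the cap-binding complex eIF4F. On 4 arrays total RNA of Eif4g3 siRNA cells (Cy5) was compared with total RNA of control siRNA cells (Cy3), and on 4 further arrays the same comparison was made with RNA of pooled heavy polysome fractions of a sucrose gradient, which hold mRNAs carrying many ribosomes. Cells were pooled before fractionation, and no label tells whether replicates were separate cultures, so the p-values may measure technical spread only. No array had the dyes swapped, so dye bias and siRNA effect cannot be told apart for a probe within either fraction. Each labelling started from 200 ng of RNA, and a ratio therefore gives a share of the RNA and no amount per cell.

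The 14-3-3 proteins are small acidic adaptors that work as dimers. They bind client proteins at short motifs that carry a phosphorylated serine or threonine, and by binding they hold a client in the cytoplasm, change its activity or protect it from dephosphorylation. Ywhab encodes 14-3-3 beta, Ywhae epsilon, Ywhag gamma, Ywhah eta, Ywhaq theta (also called tau), Ywhaz zeta and Sfn sigma. Most isoforms are found in nearly every cell, whereas sigma is known as an epithelial isoform that is induced by p53 and forms mainly homodimers.

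The targeted transcript, Eif4g3, had a log2 ratio of -2.07 ± 0.29 (SD, n = 4) on the total RNA arrays, a 4.2-fold decrease. Its ratio on the heavy polysome arrays was -2.46 ± 0.5 (n = 4), a 5.49-fold decrease. It was below 0 on all 8 arrays. Of the 9 fibroblast stroma markers, 7, among them Pdgfra, Pdgfrb, Col1a1 and Pdpn, were well above background in both channels on all 8 arrays, whereas Cxcl13 was never so and Ccl19 in Cy3 on 3 arrays and in Cy5 on 1. The endothelial markers Pecam1 and Lyve1 and the leukocyte marker Ptprc were not above background on any array, but the endothelial gene Kdr was so in Cy3 on 7 arrays and in Cy5 on 6, Prox1 in Cy5 on 3, Tek in Cy3 on 2 and Cdh5 in Cy3 on 1. Csf1r and Cd68, genes of the macrophage lineage, were above it on all 8. Of the 8 tested fibroblast stroma markers 1 was called lower on the total RNA arrays and 4 on the heavy polysome arrays, 12.5% and 50% of the 8 beside 2.64% and 4.00% of all tested genes, and the part of this in the results below was not tested. Heavy polysome array 1 stood apart in Cy3: 37.7% of its Cy3 spots were well above background, against 45.5% to 57.6% on the other 7 arrays. Its ratios correlated least with the other arrays of its fraction (mean r = 0.288 across genes). Array 3 was close to it on this measure (0.317), against 0.524 and 0.565 for arrays 2 and 4. Heavy polysome arrays 2 and 4 correlated with each other at r = 0.884 across genes, against 0.352 and 0.336 for array 2 with arrays 1 and 3, and calls that ended with arrays 2 and 4 counted as 1 replicate are named. Results that rest on array 1 are given with and without it.

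Upstream sequence was taken from RefSeq records of GRCm38.p6, where 5 of the 7 genes matched (Sfn, Ywhae, Ywhag, Ywhah and Ywhaq). Ywhah and Ywhag are shown because both lie on chromosome 5 and both are read by 1 probe, while their mean ratios in total RNA lay on opposite sides of 0. Each run gives the 250 bases before the annotated transcript start, 5′ to 3′ on the gene's strand. Capitals mark TGACGTCA, the palindromic cAMP response element, and GGGCGG or its reverse complement CCGCCC, the core of a GC box. Both strands were searched.
Ywhah: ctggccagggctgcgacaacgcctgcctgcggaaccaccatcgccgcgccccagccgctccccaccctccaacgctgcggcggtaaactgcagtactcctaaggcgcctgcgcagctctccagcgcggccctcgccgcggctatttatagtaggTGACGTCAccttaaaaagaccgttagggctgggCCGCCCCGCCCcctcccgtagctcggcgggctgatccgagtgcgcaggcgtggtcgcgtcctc
Ywhag: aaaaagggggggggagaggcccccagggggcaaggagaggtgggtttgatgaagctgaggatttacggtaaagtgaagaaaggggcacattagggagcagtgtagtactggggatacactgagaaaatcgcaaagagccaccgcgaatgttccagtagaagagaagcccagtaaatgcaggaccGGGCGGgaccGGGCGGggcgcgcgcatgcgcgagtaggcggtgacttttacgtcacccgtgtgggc
The Ywhah window is chr5:33018566-33018815 on the plus strand, and the Ywhag window is chr5:135934642-135934891 on the minus strand. TGACGTCA occurred once upstream of Ywhah, with its first base 96 bases before the start, and in none of the other 4 windows. Among 32851 windows of the same length, 1.55% held it. GGGCGG or CCGCCC occurred in the windows of 3 of the 5 genes, at 2 places each in Ywhah, Ywhag and Ywhae, and in 32.7% of all windows. The 2 copies of Ywhah overlap by 1 base. A match is a description of these letters and says nothing of use by a factor.

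Ywhah, the eta isoform, was the 14-3-3 transcript that rose in total RNA. It is read by probe A_51_P306527 (mm8 chromosome 5, 33344713 to 33344772), which was well above background in both channels on all 8 arrays. Processed signals rose from 39400 in control siRNA to 92700 in Eif4g3 siRNA cells on total RNA array 1, from 25500 to 45400 on array 2, from 19100 to 40700 on array 3 and from 12000 to 26500 on array 4. The Eif4g3 siRNA channel was thus the higher on every array, although the signal of array 1 in control cells was close to that of array 3 in knockdown cells.

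**Figure D1:**
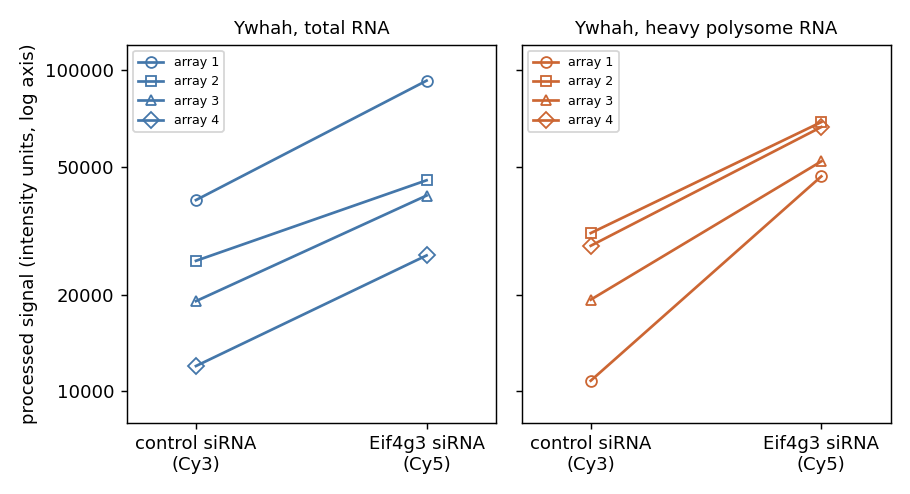
Processed signal of the Ywhah probe in the control siRNA channel (Cy3) and the Eif4g3 siRNA channel (Cy5), in intensity units on a log axis, with 1 line per array, for total RNA (left) and heavy polysome RNA (right). Every line rises, and the steepest is heavy polysome array 1, from 10800 to 46700.

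After background correction and loess normalisation the log2 ratios of Ywhah in total RNA were 1.19, 0.93, 1.07 and 1.32 on arrays 1 to 4. They lay close together and all above the ratios of the other 6 genes on the same arrays. Their mean was 1.13 ± 0.17 (n = 4), a 2.19-fold increase (95% interval of the log2 ratio 0.79 to 1.47, limma adjusted p = 0.00936), and it ranked 16th from the top of 14861 tested genes. Of the 7 genes, 1 was called higher and 0 lower in total RNA, where 4.31% of all tested genes were called, 1.67% as higher and 2.64% as lower. The spread in the Ywhah test is shared with the heavy polysome arrays, and without heavy polysome array 1 the limma adjusted p was 0.00221. Leaving out total RNA array 3 ended the call (1.15, adjusted p = 0.0546), as did arrays centred on their medians in place of loess (0.25, adjusted p = 0.676). Under that centring 0 of all 14861 tested genes were called in total RNA. The median of all tested genes was then -0.77, and Ywhah lay 1.02 above it, against 1.17 above the median with loess. In bulk RNA, a change in RNA per cell and a change in the make-up of the culture cannot be told apart.

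In heavy polysome RNA the processed Ywhah signals went from 10800 to 46700, from 31100 to 68900, from 19300 to 52000 and from 28400 to 66500 on arrays 1 to 4. The corresponding log2 ratios were 2.15, 1.14, 1.53 and 1.24. All were above 0, array 1 being the highest and arrays 2 and 4 falling within the range of total RNA. The mean was 1.52 ± 0.46 (n = 4), 2.86-fold, the 5th highest of the 14861 genes, and without array 1 it was 1.3 ± 0.2 (n = 3). Of all tested genes, 8.83% were called in heavy polysome RNA, 4.82% as higher and 4.00% as lower. The mean ratio was 0.39 higher in heavy polysome than in total RNA, and this difference ran from 0.18 without heavy polysome array 1 to 0.51 without array 2, and was 1.32 with median centring, under which the median difference of all genes was 0.78.

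**Figure D2:**
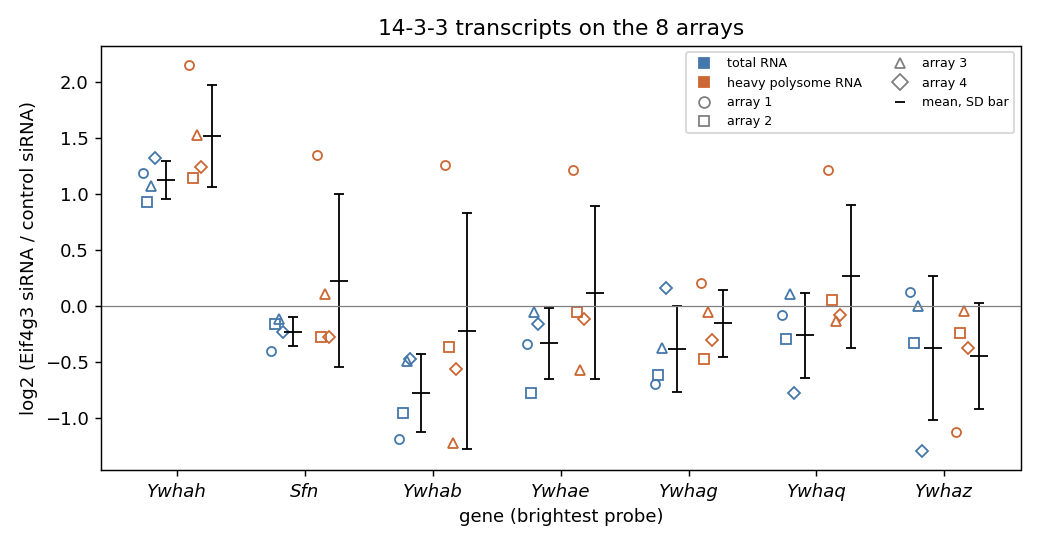
Log2 ratio of Eif4g3 siRNA over control siRNA for the brightest probe of each 14-3-3 gene, with total RNA in blue and heavy polysome RNA in orange. Marker shapes give the array number, and black bars give mean and SD over 4 arrays. Ywhah lies between 0.93 and 2.15, whereas the heavy polysome values above 1 in Sfn, Ywhab, Ywhae and Ywhaq all come from array 1.

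The other 6 genes gave no call in either fraction. By limma with Benjamini-Hochberg adjustment, 0 of 6 passed in total RNA and 0 of 6 in heavy polysome RNA, and at an unadjusted p under 0.05 these counts were 2, both lower, and 0, beside 22% and 25.4% of all tested genes. By the brightest probe of each gene, their means in total RNA were all below 0, with a median of -0.35 beside -0.04 for all tested genes. The second probes of Ywhab and Ywhaq had total RNA means above 0 (0.22 and 0.17), and those of Ywhae and Ywhaz means below it (-0.39 and -0.28). By the brightest probes, 3 means were above and 3 below 0 on the heavy polysome arrays, with a median of -0.02 beside 0.02. On heavy polysome array 1 the median of the 6 was 1.22 and 4 exceeded 1, a level that 4.09% of all tested genes exceeded there, while on the other 7 arrays the median lay between -0.47 and -0.08 and 0 of 6 exceeded 1.

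Ywhab (14-3-3 beta) had the lowest mean ratio of the family in total RNA when each gene was read by its brightest probe. Its brightest probe, A_52_P112958 (mm8 chromosome 2, 163708937 to 163708996), gave -1.18, -0.95, -0.49 and -0.47 on total RNA arrays 1 to 4. All 4 were below 0, and their mean of -0.77 ± 0.35 did not pass (interval -1.49 to -0.06, adjusted p = 0.193). The call depended on which arrays set the spread, since the adjusted p was 0.0408 when the total RNA arrays were fitted alone and 0.0261 without heavy polysome array 1. Heavy polysome arrays 1 to 4 gave 1.26, -0.36, -1.22 and -0.56 for the same probe, so array 1 had the opposite sign to the other 3. The mean was -0.22 ± 1.05 (adjusted p = 0.707), and without array 1 it was -0.72 ± 0.45 (n = 3, adjusted p = 0.0496).

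The second Ywhab probe, A_51_P242027 (163705502 to 163705561, the same transcript by the file's accession), did not follow the first. Adjusted p-values of second probes come from a fit with every probe as a row, over 21413 probes, of which 3.92% were called on the total RNA arrays and 7.83% on the heavy polysome arrays, against 0 of the 10 measured probes of the 6 genes. Probe A_51_P242027 gave 0.21, 0.24, 0.14 and 0.28 in total RNA, all above 0, with a mean of 0.22 ± 0.06 (adjusted p = 0.445). Its heavy polysome values were -0.77, 0.07, 0.38 and -0.04. The probes had the same sign on 1 of 8 arrays, and in total RNA the first lay 0.99 ± 0.36 below the second, lower on 4 of 4 arrays. With 4 pairs a two-sided exact permutation test cannot go below p = 0.125. A direction for Ywhab therefore holds for a probe and not for the gene.

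**Figure D3:**
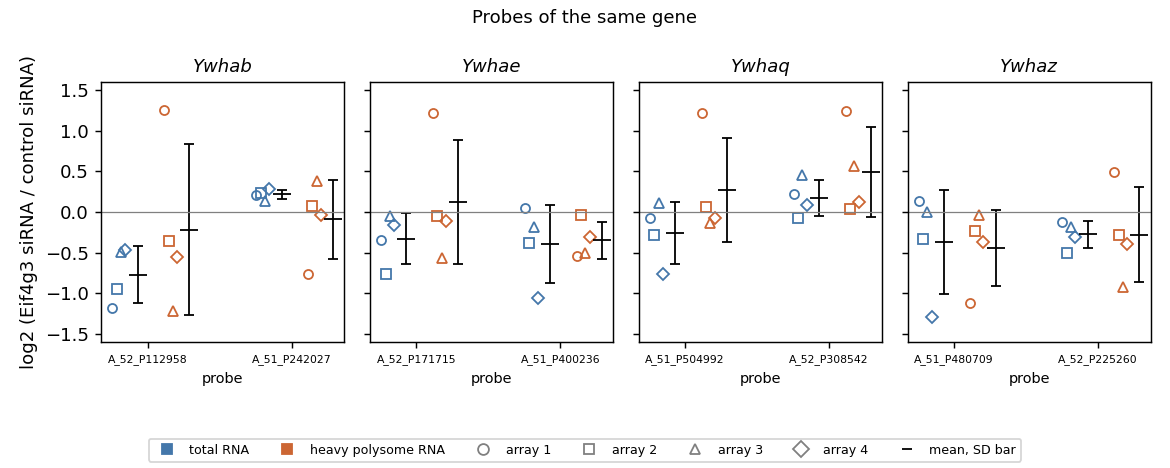
Log2 ratio of Eif4g3 siRNA over control siRNA for both measured probes of Ywhab, Ywhae, Ywhaq and Ywhaz, with total RNA in blue, heavy polysome RNA in orange, marker shapes for array numbers and black bars for mean and SD over 4 arrays. The 2 Ywhab probes do not overlap in total RNA, where the first lies between -1.18 and -0.47 and the second between 0.14 and 0.28.

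Ywhaq (14-3-3 theta, abundant in T cells) also differed between probes. Probe A_51_P504992 gave -0.08, -0.29, 0.11 and -0.77 in total RNA, a mean of -0.26 ± 0.38 (adjusted p = 0.541). Probe A_52_P308542 (mm8 chromosome 12, 21637490 to 21637549) gave 0.22, -0.08, 0.46 and 0.09, a mean of 0.17 ± 0.23 (adjusted p = 0.627). The heavy polysome values of the first probe were 1.22, 0.06, -0.13 and -0.08 (mean 0.27 ± 0.64, adjusted p = 0.487) and those of the second 1.25, 0.04, 0.57 and 0.12 (mean 0.49 ± 0.55, adjusted p = 0.131). Array 1 was the highest of the fraction for both probes, and without it the mean of the first was -0.05 ± 0.1 (n = 3). The probes had the same sign on 4 of 8 arrays.

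Ywhae (14-3-3 epsilon, one of the most conserved isoforms) gave -0.34, -0.77, -0.05 and -0.16 in total RNA with its brightest probe, A_52_P171715 (mm8 chromosome 11, 75581244 to 75581303). All 4 were below 0, with a mean of -0.33 ± 0.32 (adjusted p = 0.474). Heavy polysome RNA gave 1.22, -0.05, -0.57 and -0.11, a mean of 0.12 ± 0.77 (adjusted p = 0.798) that turned to -0.24 ± 0.29 without array 1. Its second probe, A_51_P400236 (75581864 to 75581923), gave means of -0.39 ± 0.47 and -0.35 ± 0.23 (adjusted p = 0.197 and 0.22), and was below 0 on heavy polysome array 1 (-0.54).

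Ywhaz (14-3-3 zeta, an isoform linked with cell survival) was below 0 in both fractions by both probes, in no case past the threshold. A_51_P480709 gave 0.13, -0.33, 0 and -1.29 in total RNA (mean -0.37 ± 0.64, adjusted p = 0.387), and -1.12, -0.24, -0.04 and -0.37 in heavy polysome RNA (mean -0.44 ± 0.47, adjusted p = 0.275, and -0.22 ± 0.17 without array 1). Total RNA array 4 and heavy polysome array 1 were the lowest of their fractions. A_52_P225260 gave means of -0.28 ± 0.17 and -0.28 ± 0.59 (adjusted p = 0.419 and 0.384). On heavy polysome array 1 these probes were opposite, at -1.12 and 0.49.

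Sfn (14-3-3 sigma) was read by 3 probes, of which 1 was measured. A_52_P334188 (mm8 chromosome 4, 132873160 to 132873219) was well above background in both channels on all 8 arrays. A_51_P213940 was so in Cy3 on heavy polysome array 4 only, and A_52_P334191 on none. All 3 carry the same transcript accession, but the files place A_51_P213940 on chromosome 11, and A_52_P334191 on chromosome 8 on 7 arrays and on chromosome 4 (132873361 to 132873420) on total RNA array 2. The bright probe gave -0.4, -0.16, -0.11 and -0.23 in total RNA, all below 0 (mean -0.22 ± 0.12, adjusted p = 0.62). It gave 1.35, -0.27, 0.11 and -0.27 in heavy polysome RNA (mean 0.23 ± 0.77, adjusted p = 0.577, and -0.14 ± 0.22 without array 1). Among 7 epithelial markers, Trp63 was not above background on any array, Epcam was above it in Cy3 on 1 array and Cdh1 on 1 array in each channel. The 4 keratins were above it more often, and these 4 were tested. Krt18 was above background in Cy3 on 7 arrays and in Cy5 on 8, and Krt14 in Cy3 on 6 and in Cy5 on 5. Krt5 was so in Cy3 on 5 and in Cy5 on 2, and Krt8 in Cy3 on 3 and in Cy5 on 6. None of the 7 was above background in both channels on all 8 arrays, and their mean log2 level was 6.16 to 6.28 in Cy3 and 6.16 to 6.52 in Cy5. The part of epithelial cells in the Sfn signal was not tested.

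The 5 dim probes of the family carried no measurable ratio. Besides the 2 of Sfn they were A_52_P907995 of Ywhae, A_52_P215249 of Ywhaq and A_52_P644465 of Ywhaz, none well above background on any array. The files place the last on chromosome 1, and the 2 measured Ywhaz probes on chromosome 15. Positions are not printed for the first probes of Ywhaq and Ywhaz, for which the files span only 8 and 13 bases, and exons are not named, since an mm8 annotation was not used here.

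Ywhag (14-3-3 gamma) was the member whose heavy polysome and total RNA levels were furthest apart. Its probe A_52_P555723 (mm8 chromosome 5, 136193356 to 136193415) gave ratios of -0.69, -0.61, -0.37 and 0.16 on total RNA arrays 1 to 4 (mean -0.38 ± 0.38, adjusted p = 0.188). The heavy polysome arrays gave 0.21, -0.47, -0.05 and -0.3 (mean -0.15 ± 0.3, adjusted p = 0.581), with array 1 the highest, and without it their mean was -0.27 ± 0.21 (n = 3). Control siRNA levels on the log2 scale, after loess within and Aquantile scaling between arrays, read 12.61, 11.71, 11.85 and 11.53 on total RNA arrays 1 to 4. The heavy polysome levels read 12.75, 12.89, 12.92 and 12.78. The fractions did not overlap, and the heavy polysome level was 0.91 higher (interval 0.4 to 1.42, adjusted p = 0.0834). Counted from the most positive difference down, it ranked 22nd of 14861 genes in control siRNA and 63rd in Eif4g3 siRNA cells. In Eif4g3 siRNA cells the levels read 11.92, 11.1, 11.48 and 11.69 against 12.96, 12.42, 12.88 and 12.48, again with no overlap, a difference of 1.14 (interval 0.63 to 1.64, adjusted p = 0.0951). Neither passed, and the control siRNA difference passed without total RNA array 1 (1.14, adjusted p = 0.0108). Without heavy polysome array 1 the control difference was 0.94 (adjusted p = 0.135) and that of knockdown cells 1.04 (adjusted p = 0.305).

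**Figure D4:**
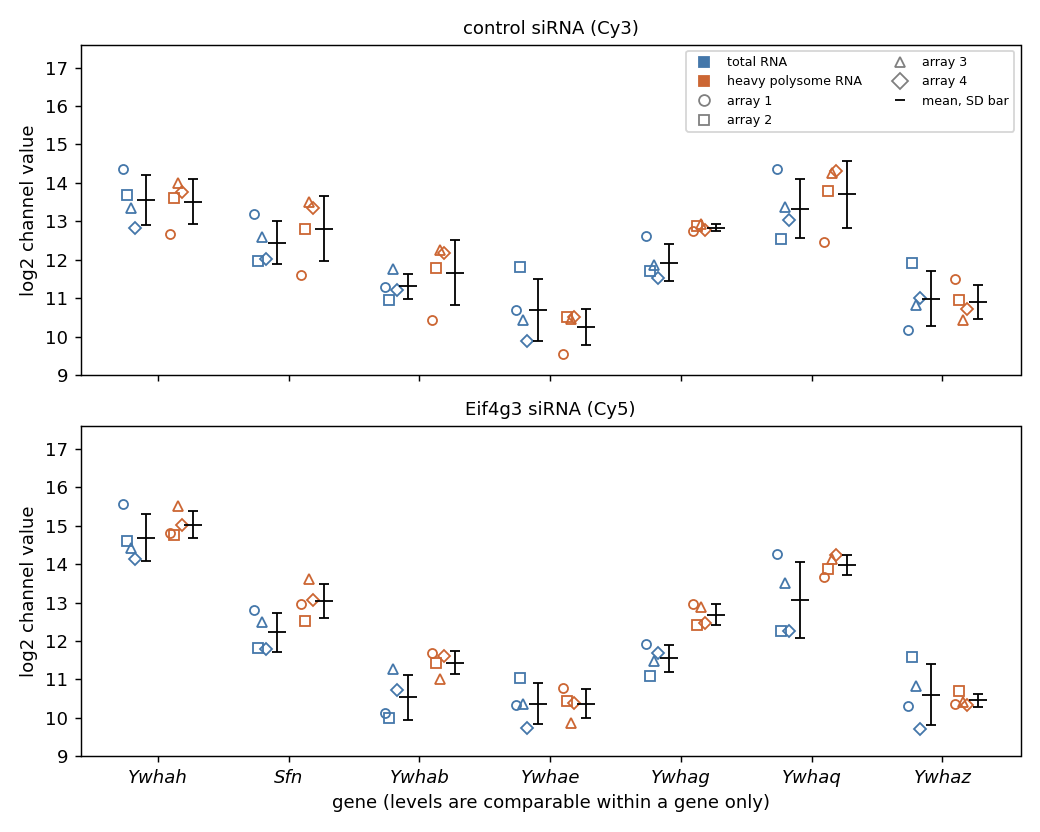
Log2 channel values of the brightest probe of each 14-3-3 gene in control siRNA cells (Cy3, top) and Eif4g3 siRNA cells (Cy5, bottom), with total RNA in blue, heavy polysome RNA in orange, marker shapes for array numbers and black bars for mean and SD over 4 arrays. Ywhag is the gene whose fractions do not overlap in either channel, at 12.75 to 12.92 against 11.53 to 12.61 in control siRNA cells.

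By limma 0 of the 6 tested members differed between heavy polysome and total RNA in either siRNA, where 2.28% of all genes were called in control siRNA and 0.155% in Eif4g3 siRNA cells. At an unadjusted p under 0.05 the counts were 1 and 3 of 6, beside 12.4% and 12.3% of all tested genes. These were Ywhag in control siRNA, and Ywhag, Ywhab and Sfn in Eif4g3 siRNA cells, all higher in heavy polysome RNA. Within the control siRNA channel the log2 difference of heavy polysome over total RNA was 0.36 for Sfn, 0.36 for Ywhab, -0.45 for Ywhae, 0.38 for Ywhaq and -0.08 for Ywhaz, all with overlapping arrays. Without heavy polysome array 1 these differences were 0.76, 0.77, -0.22, 0.8 and -0.28 in the same order, and none was called. Within the Eif4g3 siRNA channel the differences were 0.82, 0.91, 0, 0.91 and -0.15 in that order, again with overlapping arrays. The second probes gave -0.09 for Ywhab, 0.04 for Ywhae, 0.43 for Ywhaq and 0.78 for Ywhaz in that channel. Ywhah had nearly equal levels in control cells, 13.51 ± 0.58 in heavy polysome and 13.56 ± 0.65 in total RNA, and 15.03 ± 0.34 and 14.68 ± 0.62 in Eif4g3 siRNA cells. The arrays of the fractions overlapped in both channels, in control cells from 12.67 to 13.99 and from 12.82 to 14.37. Each of the 5 slides held arrays of 1 fraction, so slide and fraction cannot be told apart.

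The difference of the log2 ratios, heavy polysome minus total RNA, was called for 0 of the 6 members and for 0% of all genes by limma, and for 0 members and 784 genes (5.28%) at an unadjusted p under 0.05. It was 0.55 for Ywhab (interval -0.46 to 1.56), 0.53 for Ywhaq (-0.17 to 1.22), 0.45 for Sfn (-0.27 to 1.18), 0.45 for Ywhae (-0.32 to 1.22), 0.22 for Ywhag (-0.26 to 0.71) and -0.07 for Ywhaz (-0.81 to 0.67). All 6 intervals hold 0. Without heavy polysome array 1 the differences were 0.06 for Ywhab, 0.21 for Ywhaq, 0.08 for Sfn, 0.08 for Ywhae, 0.1 for Ywhag and 0.16 for Ywhaz, so that Ywhaz changed sign and the other 5 came closer to 0.

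The genes whose 8 ratios most resembled those of Ywhah were Dnajb4 (a heat shock protein 40 co-chaperone; Pearson r = 0.992), B3galt6 (a galactosyltransferase of proteoglycan linkers; 0.989), Ghr (the growth hormone receptor; 0.987), Nupl1 (a nucleoporin; 0.983) and Mdm2 (the ubiquitin ligase of p53; 0.982). All 5 were highest on heavy polysome array 1, as Ywhah was, and over the 7 other arrays r ran from 0.917 for Mdm2 to 0.964 for Dnajb4. Of 14860 genes, 230 had r above 0.9. Likeness here is in the pattern over arrays, not in level or sign: Ghr had mean log2 ratios of -1.06 for total and -0.54 in heavy polysome RNA.

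Proteins that 14-3-3 dimers bind were followed through a list of 60 client genes, 49 of them tested. In total RNA 0 rose and 3 fell, 6.12% of the 49 beside 4.31% of all tested genes called (2.64% as lower), with a median of -0.1 beside -0.04 for all genes. Lrrk2, the leucine-rich repeat kinase, gave -0.53, -0.62, -0.63 and -0.43 and fell by 0.55 on the log2 scale (adjusted p = 0.0174). Akt1s1, the Akt substrate PRAS40 that restrains mTORC1, fell by 0.83 (adjusted p = 0.0441), and Arhgef2, a microtubule-bound exchange factor of RhoA, fell by 0.46 (adjusted p = 0.0276). The Lrrk2 call was lost without total RNA array 1, 2 or 3 (adjusted p up to 0.0875). The other 2 calls were each lost when any 1 of the total RNA arrays or of heavy polysome arrays 2 and 4 was left out (up to 0.143 for Akt1s1 and 0.131 for Arhgef2), and both were lost with heavy polysome arrays 2 and 4 as 1 replicate (0.0748 and 0.0512). With no filter on dim probes Akt1s1 missed the threshold too (0.0805). It also missed it with processed signals, as deposited (-0.63, adjusted p = 0.138) and when these were centred or taken from the series matrix (0.125). With the mean of all its probes Arhgef2 was at -0.14 in either fraction (adjusted p = 0.264 and 0.254). In heavy polysome RNA 1 rose and 6 fell, 14.3% of the 49 beside 8.83% of all tested genes, with a median of -0.04 beside 0.02.

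The largest fall among clients in heavy polysome RNA was that of Lrrk2, with -0.72, -0.87, -1.17 and -1 on arrays 1 to 4, a mean of -0.94 ± 0.19 (adjusted p = 0.00194). All 8 arrays were below 0, and the heavy polysome call held with any 1 array left out. Irs1, the insulin receptor adaptor, fell by 0.75, Pi4kb, a phosphatidylinositol 4-kinase, by 0.58, Ssh1, the cofilin phosphatase slingshot, by 0.56, Araf, a serine/threonine kinase, by 0.55, and Arhgef2 by 0.43 (adjusted p from 0.013 to 0.0251). Without heavy polysome array 4 each of these 5 missed the threshold (0.0513 to 0.0844), as did Araf without array 2, Arhgef2 without 2 or 3, and Pi4kb without 1, 2 or 3. With arrays 2 and 4 counted as 1 replicate all 5 missed it as well (0.0501 to 0.0665), whereas Lrrk2 kept its call in both fractions (0.0374 and 0.0137). The mean of all its probes put Ssh1 at -0.29 (adjusted p = 0.112). Other well-known clients did not pass in either fraction: Cdc25b (0.29 in total and 0.31 in heavy polysome RNA), Bad (-0.08 and 0.09), Tsc2 (-0.03 and -0.09), Cdkn1b (0.31 and 0.31) and Yap1 (-0.73, adjusted p = 0.0531, and -0.17). Yap1 did pass in total RNA with processed signals as deposited (-0.96, limma adjusted p = 0.0246), slide as a random block (0.0236) or the total RNA arrays alone (0.0311). It missed the threshold with median centring (0.0937) or no filter on dim probes (0.0989), and leaving out 1 array gave 0.0148 to 0.178. Cdc25b passed in heavy polysome RNA with slide as a random block (0.027). Foxo3 was not above background.

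**Figure D5:**
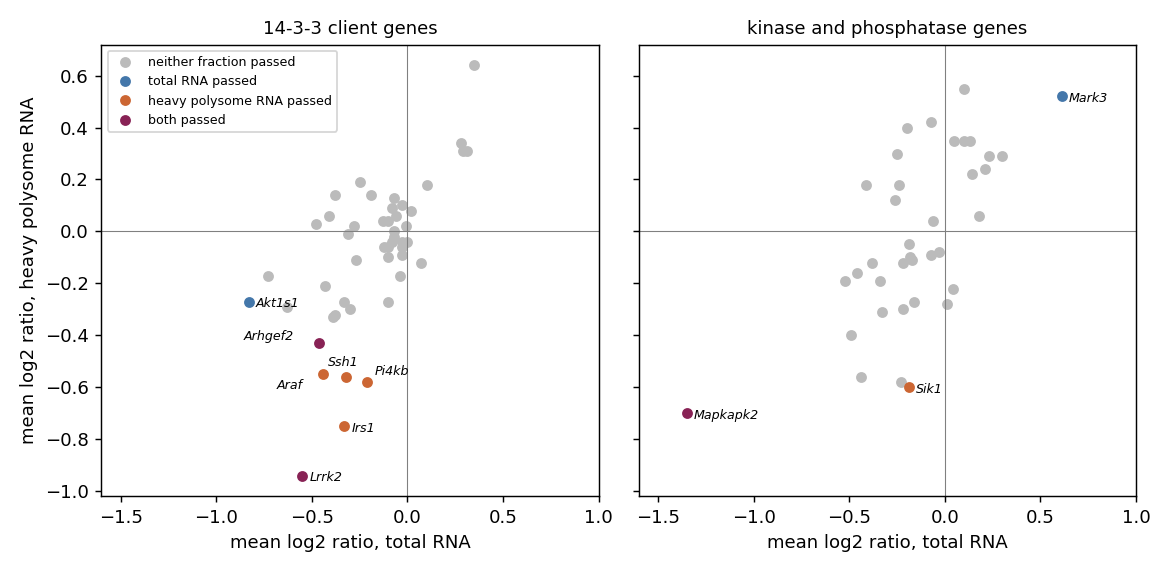
Mean log2 ratio of Eif4g3 siRNA over control siRNA in total RNA (horizontal) and heavy polysome RNA (vertical) for client genes (left) and kinase and phosphatase genes (right), 1 point per plotted gene, coloured by the fraction in which limma's adjusted p was under 0.05. Mapkapk2 lies at -1.35 and -0.7, Lrrk2 at -0.55 and -0.94.

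Kinases and phosphatases that act on 14-3-3 binding sites made up a list of 38 genes, all tested. In total RNA 1 rose and 1 fell, 5.26% of the list beside 4.31% of all tested genes. Mapkapk2, the kinase downstream of p38 that phosphorylates tristetraprolin, gave -1.34, -1.02, -1.34 and -1.69 in total RNA, a 2.54-fold decrease (-1.35 ± 0.27, adjusted p = 0.00936, and 0.0558 without total RNA array 3). Its heavy polysome ratios were 0.09, -0.97, -1.07 and -0.85, so that array 1 stood apart, with a mean of -0.7 ± 0.54 (adjusted p = 0.0447) that was -0.96 without array 1 and missed the threshold when any 1 of total RNA arrays 1 to 3 or heavy polysome arrays 2 to 4 was left out (up to 0.162). The heavy polysome call also ended with arrays 2 and 4 as 1 replicate (0.159) or with no filter on dim probes (0.0819), and with the mean of all its probes the ratio was -0.33 (adjusted p = 0.26). Mark3, a kinase of 14-3-3 sites in Cdc25 and Ksr1, rose by 0.61 in total RNA (adjusted p = 0.0445, up to 0.142 when any 1 of the total RNA arrays or of heavy polysome arrays 2 and 4 was left out, and -0.34 with median centring in place of loess). It was 0.17 with the mean of all its probes (adjusted p = 0.466), and it missed the threshold with no filter on dim probes (0.0703) and with heavy polysome arrays 2 and 4 as 1 replicate (0.0756). Of the 38, in heavy polysome RNA 1 rose and 2 fell, 7.89% of the list beside 8.83% of all tested genes. Sik1, a salt-inducible kinase of class IIa histone deacetylases and Crtc proteins, fell by 0.6 (adjusted p = 0.00729) beside Mapkapk2. With median centring 0 genes of either list were called in either fraction, but 0 of all 14861 tested genes were called there too. For both lists, 0 genes differed between the fractions by limma.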

How the data were processed

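Per the file headers, the deposited scanner files give the brightness of each spot and of its surroundings in Cy3 and Cy5 as intensity, made by the authors with Agilent Feature Extraction 10.7.3.1 on 7 arrays and 10.5.1.1 on total RNA array 2, with probe coordinates on mm8. Signals that the same software had background-subtracted and dye-normalised (processed signals) stand beside them, and the deposited series matrix holds their log2 ratio, Cy5 over Cy3.

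Mean spot signals were corrected with normexp (offset 50) and normalised within arrays by loess (span 0.3). For levels of 1 channel, Aquantile scaling between arrays followed. A gene was represented by its brightest probe and tested if 3 or more of the 4 arrays of a fraction had that probe well above background in Cy3 or Cy5, which left 14861 genes. Names were updated through RefSeq records of GRCm38.p6, which matched 56.8% of probes. Ratios were fitted in limma 3.58.1 (R 4.3.3) with 1 coefficient per fraction over 8 arrays, two-sided, with Benjamini-Hochberg adjustment over all tested genes and a threshold of 0.05. Scripts were tested on simulated data. Plots used Python 3.11.15 and matplotlib 3.10.9.

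The 14-3-3 genes and the client, kinase and marker lists were chosen with earlier results of these data known. The text names every member with all its probes, Eif4g3, the 5 genes whose ratios correlate best with those of Ywhah, the members of the client and kinase lists past the threshold, and always the clients Cdc25b, Bad, Foxo3, Yap1, Akt1s1, Tsc2 and Cdkn1b. Members of these lists that stand in a count but are not named or plotted are not reported here. No spot was saturated, and the number of arrays limits the precision. Replicate numbers were not taken as pairs of the fractions. For arrays of the same number, the correlation of deviations from the fraction means was between -0.297 and 0.169. Such values cannot tell whether total and heavy polysome RNA of a number came from the same cells.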

Additional observations from a re-analysis of the deposited data

Results flagged for a closer look

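Ywhaq probe A_51_P504992 had a log2 ratio of 1.22 on heavy polysome array 1, far from the other 3 arrays of that fraction, which lay between -0.13 and 0.06. The gap was 0.858 of the whole range, beyond Dixon's limit of 0.829 for 4 samples. Of 22 groups of 4 arrays examined, 1 passed that limit, and chance alone passes about 5% of groups. The same array also gave 1.25 for the second Ywhaq probe.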

How the results depend on the processing

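Ywhah in total RNA kept its direction under all 19 alternatives; its log2 ratio fell to 0.25 with arrays centred on their medians in place of loess, and ran from 1.07 to 1.19 with 1 array left out. The count of 14-3-3 genes called in total RNA was 0 with median centring, 2 with the arrays of the fraction alone, and 0 to 2 with 1 array left out. For heavy polysome RNA it was 0 to 1 on leaving out an array and 0 otherwise, in control siRNA cells between fractions 0 to 1 and 0 otherwise. Among clients in total RNA the count was 5 with processed signals (as deposited, centred, or from the series matrix), 0 with median centring, 7 with slide as a random block, 1 with heavy polysome arrays 2 and 4 as 1 replicate, and 0 to 6 without 1 array. For clients in heavy polysome RNA it was 0 with median centring, 4 with the mean of all probes, 11 with slide, 3 with the fraction alone, 2 with arrays 2 and 4 as 1 replicate, and 1 to 8 without 1 array. Among kinases and phosphatases in total RNA it was 4 with processed signals or the fraction alone, 0 with median centring, 1 with no filter on dim probes, with the mean of all probes or with arrays 2 and 4 as 1 replicate, and 0 to 4 without 1 array. In the heavy polysome fraction it was 10 with processed signals, 9 when these were centred or taken from the matrix, 0 with median centring, 14 with slide, 1 with the fraction alone or with arrays 2 and 4 as 1 replicate, and 1 to 5 without 1 array. Mark3 in total RNA reversed to -0.34 with median centring. The cause was not tested. With the replicate number as a block, 0 members were called in the difference between fractions and in either channel, as without it. The number of arrays and the shared dye orientation limit all of these values.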

Other observations

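Outside the 7 genes, the arrays carry 2 predicted loci that resemble Ywhaq by their annotation, EG668804 and LOC383707. EG668804 (probe A_52_P489324) was well above background in both channels on all 8 arrays, with log2 ratios of 0.03 ± 0.26 in total RNA (adjusted p = 0.933) and 0.38 ± 0.47 in heavy polysome RNA (adjusted p = 0.192). Like both Ywhaq probes, it was highest on heavy polysome array 1 (0.86). LOC383707 was above background in Cy3 on 4 arrays and in Cy5 on 2, and was not tested. Whether such loci share signal with the Ywhaq probes was not tested.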
